A study of Arabidopsis thaliana with 12 samples.

Results

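Of the 28775 Arabidopsis genes counted in these libraries, 10 that perceive light or relay its signal through the transcription factor HY5 are described here. They were picked by gene identifier as known light-signalling genes, with earlier results of these data already known: the phytochromes PHYA and PHYB, the cryptochromes CRY1 and CRY2, the phototropins PHOT1 and PHOT2, the bZIP factors HY5 and HYH, the ubiquitin ligase COP1 and the bHLH factor PIF4. The study measured ribosome-protected fragments (RPF, the mRNA stretches that translating ribosomes shield from RNase) and total RNA in whole rosettes of the accession Col-0, with 3 libraries in each of 4 groups. In the high-light groups (HL), plants grown for 3 weeks and then held for 10 days in low light received 800 µmol photons m-2 s-1 for 10 min. In the low-light groups (LL), plants of the same age and history stayed at 8 µmol photons m-2 s-1. All plants were wild type, had a photoperiod of 10 h and were harvested at the middle of the light period, so every group shared the same long spell of dim light.

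Phytochromes sense red and far-red light, while cryptochromes and phototropins sense blue and UV-A light. Active phytochromes and cryptochromes restrain COP1, which otherwise marks HY5 and its relative HYH for destruction, and active phytochrome B also triggers loss of the PIF growth factors. Phototropins act largely outside this route, steering phototropism, stomatal opening and chloroplast movement, and much of the control over all these proteins is exerted on the protein itself.

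Protein-coding genes held between 1162389 and 2119227 counts in the RPF libraries and between 2438332 and 16053563 in the total RNA libraries, of which LL number 1 was the shallowest. The RPF libraries of number 1 stood apart in that ribosomal RNA took 84.6% of all counts in HL and 82.7% in LL, against 4.42 to 8.66% in HL and 4.78 to 7.03% in LL for the other RPF libraries. Plastid-encoded genes took 51.4 to 58.1% of protein-coding RPF counts in HL and 42.5 to 51.8% in LL. In total RNA they took 55.6 to 72.5% in HL and 61.4 to 68.5% in LL. The rosette label was set against marker genes: 5 markers of green leaf cells summed to 4370 to 10773 CPM (counts scaled to a common library size) in every library, 4 guard-cell markers to 11.2 to 31.3 CPM and 4 flower markers to at most 1.01 CPM. Of 5 root markers, which summed to 45.7 to 110 CPM, BGLU23 made up most, at 65.6 ± 11.1 CPM of RPF in HL and 63.8 ± 16.2 CPM in LL and at 46.9 ± 6.49 CPM of total RNA in HL and 47.4 ± 10.3 CPM in LL (SD, n = 3 each). SCR averaged 22.9 ± 7.33 CPM of RPF in HL and 25.1 ± 8.87 CPM in LL, and 3.97 ± 1.45 CPM of total RNA in HL and 5.54 ± 1.18 CPM in LL. PIN2 averaged at most 0.541 CPM in any group, while the root-hair gene COBL9 was at 0 in all 4 groups and RHD6 in 3. The part of root tissue in these values was not tested. In tissue of many cell types, fewer cells of a type and less RNA per cell cannot be told apart.

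The genes lie on all 5 chromosomes of the TAIR10 build. PHYA (AT1G09570) spans 1:3095256-3100357 on the minus strand, PHYB (AT2G18790) spans 2:8139881-8144430 on the plus strand, CRY1 (AT4G08920) spans 4:5724103-5727253 on the plus strand and CRY2 (AT1G04400) spans 1:1185550-1188517 on the minus strand. PHOT1 (AT3G45780) spans 3:16816866-16824210 and PHOT2 (AT5G58140) spans 5:23524427-23533111, both on the plus strand. HY5 (AT5G11260) spans 5:3593380-3594992 on the minus strand and HYH (AT3G17609) spans 3:6023866-6024698 on the plus strand. COP1 (AT2G32950) spans 2:13977933-13983535 and PIF4 (AT2G43010) spans 2:17886427-17889050, both on the plus strand. Only PHOT2 overlaps an annotated gene on the opposite strand, AT5G58150, and none overlaps one on its own strand; reads were counted by strand.

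Levels are given as CPM, here the counts scaled to a library's normalised total over the protein-coding genes with enough counts to be tested. Between genes they are given as CPM per kb of gene span, which includes introns and untranslated regions. Division by span shapes the order of the genes. In CPM of RPF without it, PHOT1 averaged 330 in HL and 395 in LL, against 169 and 191 for CRY1. Per kb of span, CRY1, PHOT1 and CRY2 were the highest members. In RPF, CRY1 averaged 53.7 ± 13.5 CPM per kb in HL and 60.6 ± 16.4 CPM per kb in LL (SD, n = 3 each), ahead of PHOT1 with 44.9 in HL and 53.7 in LL and CRY2 with 43.5 in HL and 48.7 in LL. These 3 genes overlapped one another in all 4 groups, and the lowest library of each lay above every library of the other members. Next came PIF4 at 32.9 CPM per kb in HL and 30.5 in LL and PHYA at 26.7 in HL and 34.8 in LL, whose libraries overlapped in LL but not in HL. PHYB and PHOT2 overlapped at 16.0 and 15.5 CPM per kb in HL and at 14.6 and 16.8 in LL. Without division by span, PHOT2 averaged 135 CPM in HL and 146 in LL, against 72.7 and 66.3 for PHYB.

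The signalling factors other than PIF4 were scarce. COP1 averaged 4.58 CPM per kb of RPF in HL and 3.32 in LL, and HY5 averaged 2.88 in HL and 1.56 in LL, with overlapping libraries in HL and separate ones in LL. HYH came last in every group, at 0.392 CPM per kb of RPF in HL and 0.261 in LL. In total RNA the same 3 genes led, CRY1 averaging 36.1 CPM per kb in HL and 44.6 in LL, and PIF4 stood lower, at 11.2 in HL and 12.8 in LL, where it overlapped both PHYA and PHOT2. HY5 and HYH overlapped in total RNA, at 1.83 and 1.57 CPM per kb in HL and at 1.03 and 0.596 in LL.

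**Figure D1:**
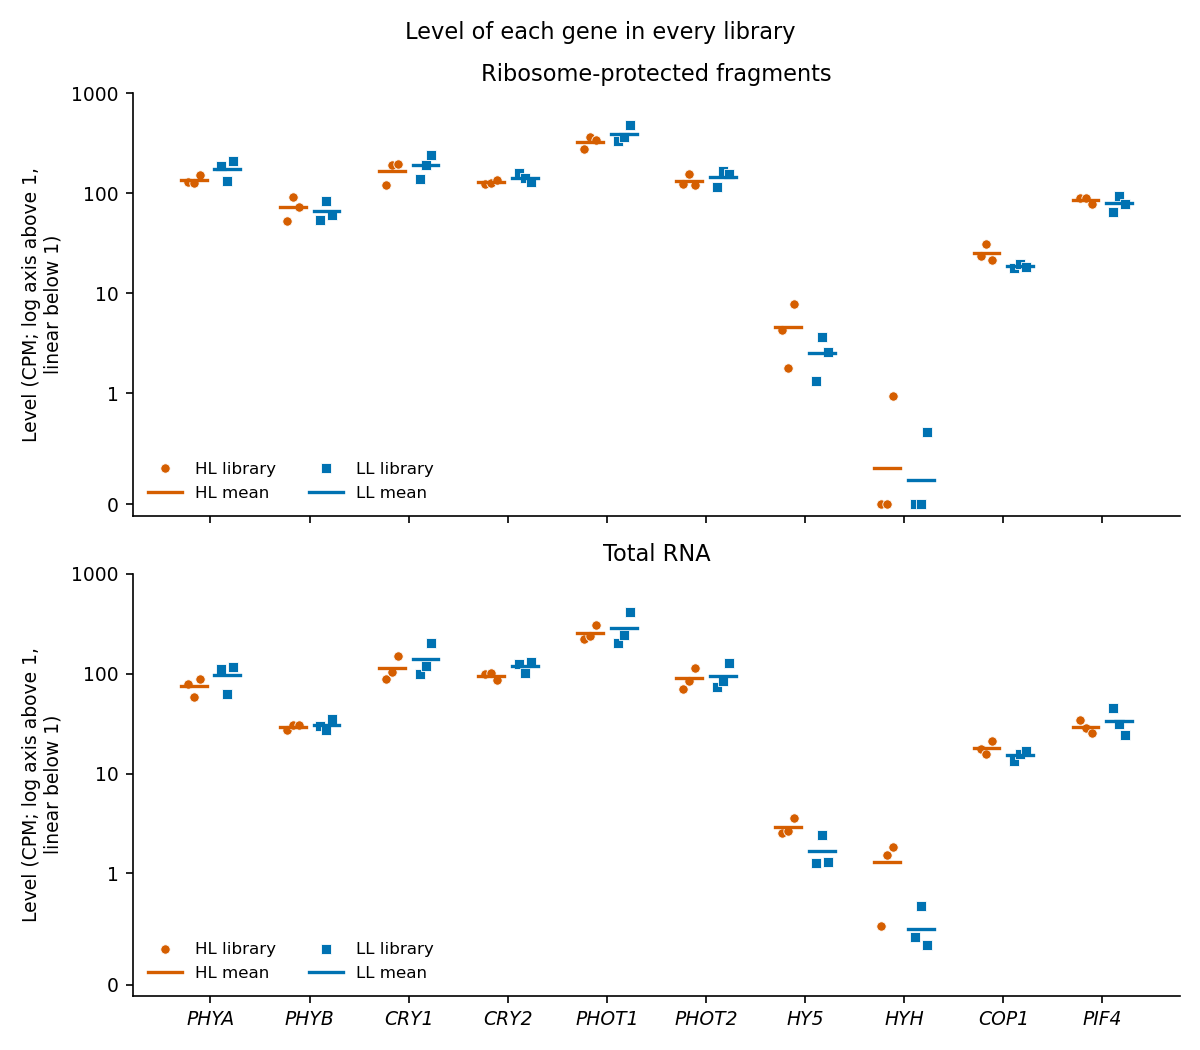
Level of the 10 genes in every library, in CPM on an axis that is logarithmic above 1 and linear below it, with RPF in the upper panel and total RNA in the lower one. Each point is a library (HL left of LL) and each bar a mean of 3; HY5 and HYH lie far below the photoreceptors in both panels.

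The first comparison asks what 10 min of strong light changed in the footprints and in the RNA of these genes. None of the genes passed the test in either kind of library. In the fit without a block, 0 of the 8 members tested in RPF and 0 of the 9 tested in total RNA had an adjusted p under 0.05 (edgeR quasi-likelihood test, Benjamini-Hochberg over all genes tested). None had an unadjusted p under 0.05 in that fit. Over all genes tested, 0.223% were called in RPF and 0.236% in total RNA. HY5 was too scarce to be tested in RPF, and HYH in both kinds. The members' median log2 change was -0.14 in RPF and -0.16 in total RNA, beside medians of 0.00 and -0.01 over all genes tested in RPF and in total RNA, and adjusted p was 1.00 for each tested member. DESeq2 and a fit with the replicate number as a block also called 0 members in both kinds; with the block 1.82% of all genes tested were called in RPF and 0.828% in total RNA.

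PHYA, the receptor of far-red and very dim light, was lower in HL in every pair of libraries of the same number. In RPF it had 129, 127 and 152 CPM in the HL libraries of number 1, 2 and 3, against 189, 133 and 211 CPM in the LL libraries. In total RNA it had 79.4, 58.9 and 89.2 CPM in HL, against 111, 63.0 and 117 CPM in LL. The pairs of number 2 differed least, with ratios of 0.952 in RPF and 0.935 in total RNA, and the groups overlapped in both kinds. Over all genes tested, 15.1% were lower in 3 of 3 pairs in RPF and 14.7% in total RNA. The log2 change of PHYA was -0.39 ± 0.25 in RPF (SE, with a 95% interval of -0.93 to 0.15) and -0.35 ± 0.29 in total RNA (-0.99 to 0.29). With the replicate number as a block it was -0.37 ± 0.15 in RPF (edgeR unadjusted p = 0.0146, adjusted p = 0.291). In total RNA the blocked value was -0.32 ± 0.16 (edgeR unadjusted p = 0.0604, adjusted p = 0.724).

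PHYB, the main receptor of red light in green plants, had 53.0, 91.7 and 73.5 CPM of RPF in HL, against 53.9, 84.4 and 60.6 CPM in LL. Its total RNA was 27.5, 30.5 and 30.5 CPM in HL, against 30.0, 27.5 and 35.3 CPM in LL. In RPF the libraries ran in the same order by number in HL and LL, number 1 lowest and number 2 highest, and the groups overlapped in both kinds. The log2 change was 0.14 ± 0.27 in RPF (95% interval -0.44 to 0.72) and -0.07 ± 0.21 in total RNA (-0.53 to 0.38).

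CRY1, the cryptochrome that works over strong blue light, had 120.2, 193 and 195 CPM of RPF in HL, against 139, 191 and 243 CPM in LL. In total RNA it had 87.6, 104 and 149.5 CPM in HL, against 99.1, 119.8 and 202 CPM in LL. It was lower in HL in 3 of 3 pairs in total RNA, as were 14.7% of all genes tested. In RPF it was lower in 2 of 3, and the groups overlapped in both kinds. The log2 change was -0.17 ± 0.28 in RPF and -0.31 ± 0.32 in total RNA (95% interval -1.02 to 0.40).

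CRY2, the cryptochrome of dim blue light, whose protein is degraded when light is strong, showed no overlap between the groups in total RNA. It had 99.1, 101 and 85.8 CPM there in HL, against 124, 102 and 130.5 CPM in LL, so that each HL library lay below each LL library, though the pair of number 2 differed little (ratio 0.985). Over all genes tested in total RNA, 3.15% had HL libraries that all lay below the LL ones. In RPF the groups overlapped, with 126, 127 and 135 CPM in HL, against 160.05, 144 and 129 CPM in LL. The log2 change was -0.32 ± 0.23 in total RNA (95% interval -0.82 to 0.19) and -0.16 ± 0.22 in RPF (-0.64 to 0.32).

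PHOT1, the phototropin sensitive to dim blue light, had 281, 364 and 344 CPM of RPF in HL, against 338, 365 and 481 CPM in LL. It was lower in HL in 3 of 3 pairs in RPF, as were 15.1% of all genes tested, but by a ratio of 0.997 in the pair of number 2. In total RNA it had 222, 235 and 303 CPM in HL, against 202, 244 and 409.9 CPM in LL, and the pairs were split. PHOT2, which drives the avoidance movement of chloroplasts in strong light, had 124, 158 and 122 CPM of RPF in HL, against 116, 166 and 155 CPM in LL. Its total RNA was 70.0, 84.0 and 114 CPM in HL, against 73.4, 83.5 and 128 CPM in LL. Both genes had overlapping groups in both kinds, with log2 changes in RPF of -0.26 ± 0.25 for PHOT1 and -0.11 ± 0.24 for PHOT2, and in total RNA of -0.17 ± 0.31 for PHOT1 and -0.09 ± 0.29 for PHOT2.

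**Figure D2:**
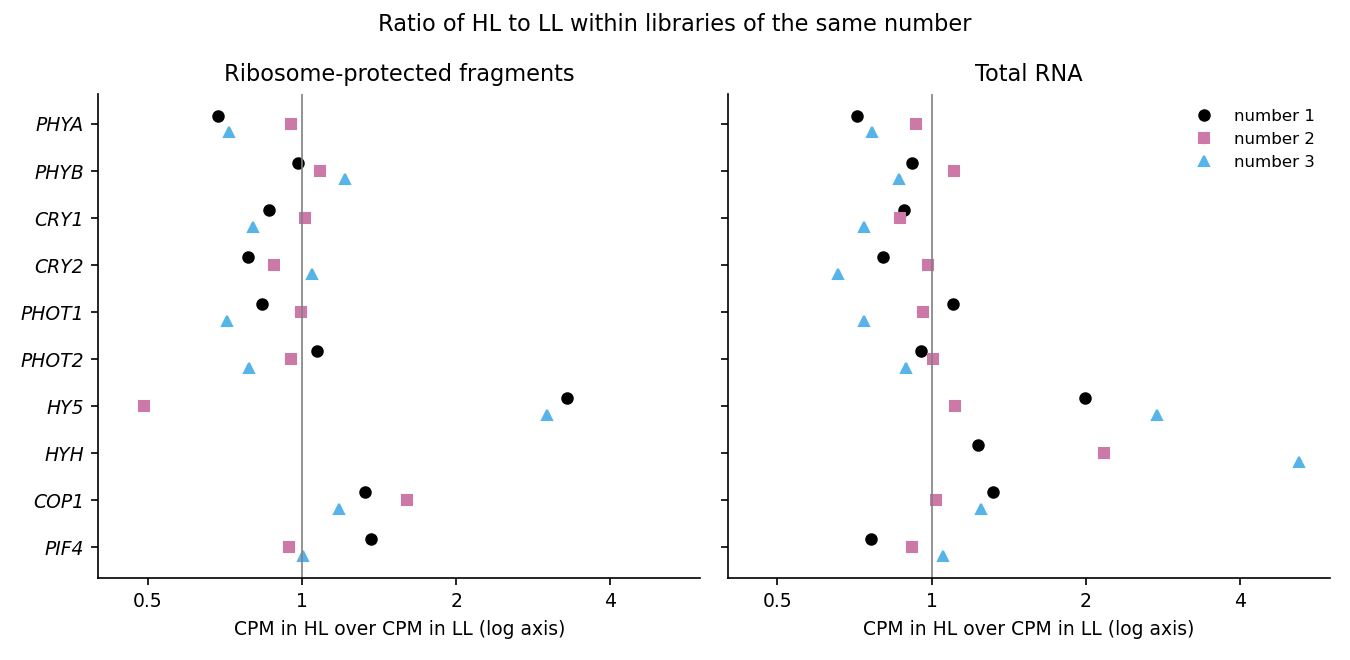
Ratio of CPM in HL to CPM in LL within libraries of the same number, on a log axis, for RPF at left and total RNA at right; symbols mark the 3 numbers and HYH is left out of the RPF panel for its counts of 0. PHYA lies below 1 and COP1 above 1 at all 3 numbers in both panels, and HY5 in RPF spans 0.491 to 3.29. Over all genes tested, 15.1% in RPF and 14.7% in total RNA were lower at all 3 numbers, and 16.2% and 15.5% were higher. The share that did so in both kinds was not computed.

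HY5, the bZIP factor that switches on light-induced genes, was higher in HL in every pair in total RNA, where the groups did not overlap. Its total RNA was 2.57, 2.68 and 3.58 CPM in HL, against 1.29, 2.42 and 1.30 CPM in LL. These values rest on 34, 28 and 29 counts in HL and on 3, 24 and 11 counts in LL. Over all genes tested in total RNA, 3.61% had HL libraries that all lay above the LL ones. The log2 change was 0.72 ± 0.38 (95% interval -0.13 to 1.56), the largest among the members tested in total RNA, and it did not pass the test. With 1 library left out it ran from 0.49, without the LL library of number 3, to 1.16, without the LL library of number 2. Summed over libraries, 91 counts in HL and 38 in LL gave a ratio of 1.56 with a 95% exact interval of 1.06 to 2.34, which covers counting error only.

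In RPF, HY5 had 4.33, 1.79 and 7.84 CPM in HL, against 1.32, 3.64 and 2.61 CPM in LL. These were 8, 3 and 8 counts in HL and 3, 5 and 4 counts in LL, the groups overlapped, and the pair of number 2 ran the other way from the other pairs. The summed counts of 19 in HL and 12 in LL gave a ratio of 1.81 with a counting interval of 0.832 to 4.08, so no difference was detectable at this depth.

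HYH, the close relative of HY5 that shares part of its work, had 0, 0 and 1 RPF counts in HL, against 0, 0 and 1 in LL. The single counts give a ratio of 1.14 with a counting interval of 0.0145 to 89.5, which says nothing of direction. In total RNA it had 7, 16 and 15 counts in HL, against 1, 7 and 3 counts in LL, or 0.529, 1.53 and 1.85 CPM in HL and 0.429, 0.705 and 0.355 CPM in LL. It was higher in HL in 3 of 3 pairs, as were 15.5% of all genes tested, and the groups overlapped. The summed counts of 38 in HL and 11 in LL gave a ratio of 2.25 with a counting interval of 1.13 to 4.89. With no filter on low counts, the log2 change was 1.25 ± 0.66 and its adjusted p was 1.00 in edgeR's quasi-likelihood test.

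COP1, the ubiquitin ligase that targets HY5 and HYH, had more RPF in each HL library than in any LL library. It had 23.8, 31.6 and 21.6 CPM of RPF in HL, against 18.0, 19.6 and 18.3 CPM in LL. Over all genes tested in RPF, 4.63% had HL libraries that all lay above the LL ones. The log2 change was 0.47 ± 0.27 (95% interval -0.12 to 1.07), the largest among the members tested in RPF, and it did not pass the test. Without the HL library of number 2 it was 0.29, and with any other library left out it was at most 0.57. In total RNA COP1 had 17.5, 15.8 and 21.1 CPM in HL, against 13.3, 15.5 and 16.9 CPM in LL. It was higher in HL in 3 of 3 pairs there too, as were 15.5% of all genes tested. The groups overlapped and the log2 change was 0.23 ± 0.21 (-0.24 to 0.70).

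PIF4, the bHLH factor that promotes elongation growth in shade and warmth, had 89.8, 89.9 and 79.4 CPM of RPF in HL, against 65.8, 95.3 and 78.9 CPM in LL. Its total RNA was 34.3, 28.4 and 25.7 CPM in HL, against 45.0, 31.1 and 24.4 CPM in LL. The groups overlapped in both kinds, and only the pair of number 1 differed by much. The log2 change was 0.12 ± 0.23 in RPF (95% interval -0.38 to 0.62) and -0.16 ± 0.26 in total RNA (-0.73 to 0.41), and in RPF it was -0.034 without the libraries of number 1.

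**Figure D3:**
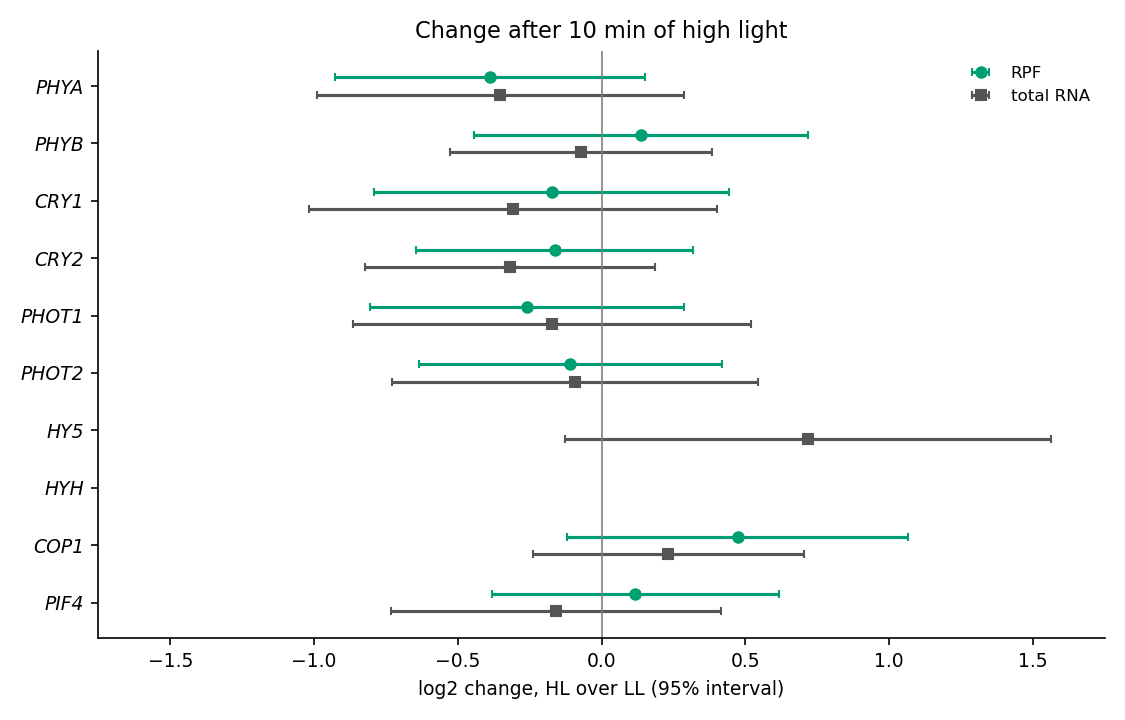
Log2 change, HL over LL, of each gene in RPF (circles) and total RNA (squares), with 95% intervals from the edgeR fit of 3 against 3 libraries without the replicate block. Every interval drawn includes 0; HY5 has no RPF value and HYH none at all because they fell under the filter on low counts.

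Translational efficiency, the RPF of a gene relative to its total RNA, was compared between HL and LL as an interaction over all 12 libraries. None of the 8 members tested passed in the edgeR quasi-likelihood test, where 0% of the 12789 genes tested were called, 179 of them with an unadjusted p under 0.05, and DESeq2 called 0 genes as well. The log2 changes in efficiency of the members ran from -0.10 ± 0.41 for PHOT1 to 0.27 ± 0.35 for PIF4. Of the 8 members, 5 had a positive change, and their median was 0.13 beside 0.02 over all genes tested. In that fit, without the block, the 95% intervals reached from -0.88 to 0.78 for PHYA, from -0.53 to 0.92 for PHYB and from -0.45 to 0.91 for COP1. With the replicate number as a block within each kind the values were -0.06 ± 0.22 for PHYA, 0.16 ± 0.22 for PHYB and 0.22 ± 0.28 for COP1. No member passed there either.

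The footprints of a gene were also set against its own RNA within each light condition, relative to the median of all genes tested. In HL, PIF4 and PHYB carried more RPF for their total RNA than the median gene. They were 2 of the 8 members tested there that passed in edgeR's quasi-likelihood test, both higher, where 5% of all genes tested were called higher and 6.61% in either direction. In LL, 0 of the 8 passed in that test, where 5.46% of all genes were called higher and 8.48% in either direction, while PHYB and PIF4 had an unadjusted p under 0.05 and DESeq2 called PIF4. Whether the members' values in HL and LL differ is the test of translational efficiency above, which none passed.

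PIF4 had the largest value in both conditions. Its RPF over total RNA, in CPM after the recentring of the fit, was 1.97, 2.38 and 2.32 in the HL libraries of number 1, 2 and 3. In LL it was 1.10, 2.31 and 2.44. CPM and the fit were scaled over different sets of genes, so that 1 lies only near the median gene on this scale. The LL pair of number 1 stands below the other 5 and holds the shallowest total RNA library. The log2 value was 1.09 ± 0.25 in HL (edgeR adjusted p = 0.0153) and 0.83 ± 0.25 in LL (adjusted p = 0.0510). With the replicate number as a block within each kind of library, LL passed as well, at 0.86 (edgeR adjusted p = 0.000512). With a block shared by RPF and total RNA it passed at 0.85 (adjusted p = 0.0124). For RPF against total RNA, p-values of the block within each kind leave out the spread between numbers and can be too small. Without the total RNA LL library of number 1 the LL value passed (edgeR adjusted p = 0.0181). The HL call was lost without the RPF HL library of number 2 (adjusted p = 0.0642) and without the total RNA HL library of number 2 (0.0787) or 3 (0.0782).

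On the same scale of recentred CPM, PHYB had ratios of 1.45, 2.27 and 1.81 in HL, against 1.35, 2.32 and 1.30 in LL. All of these values exceed 1, and those of number 2 are the highest in both conditions. The log2 value was 0.84 ± 0.24 in HL (edgeR adjusted p = 0.0494) and 0.65 ± 0.24 in LL (adjusted p = 0.109). With the block within each kind LL passed too (adjusted p = 0.00378), as it did with the shared block (0.0405). The HL call lies at the threshold: it was lost in 9 of the 12 fits that left out 1 library, where adjusted p ran from 0.0242 to 0.228, and without all libraries of number 1 (0.0605). The 9 libraries were all 6 of total RNA, those of RPF HL with number 2 and 3 and that of RPF LL with number 3.

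PHYA had ratios of 1.23, 1.62 and 1.28 in HL and of 1.28, 1.59 and 1.36 in LL on that scale. Its log2 values of 0.38 ± 0.28 in HL and 0.43 ± 0.28 in LL did not pass, and with the block within each kind the LL value of 0.47 did (edgeR adjusted p = 0.0276), though not with the shared block (0.131). In HL the RPF libraries of PHYA, PHYB and PIF4 all lay above their total RNA libraries in CPM recentred in this way, as for 18.3% of all genes tested. In LL this held for PHYB and PIF4, as for 15.3% of all genes tested.

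The blue-light receptors and COP1 lay near the median gene. The log2 values in HL were 0.11 ± 0.33 for CRY1, -0.02 ± 0.22 for CRY2, -0.08 ± 0.29 for PHOT1, 0.13 ± 0.28 for PHOT2 and 0.05 ± 0.22 for COP1. In LL they ran from -0.18 ± 0.23 for COP1 to 0.17 ± 0.28 for PHOT2. None of these passed in either light with or without a block, and the groups of all 5 genes overlapped. Ribosome footprints come from coding sequence, while both kinds of read were counted over the whole gene span. The length of introns and untranslated regions thus enters all values of RPF against total RNA. The kinds were also aligned with different programs, Bowtie2 for RPF and subjunc for total RNA. The part of either in these values was not tested.

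**Figure D4:**
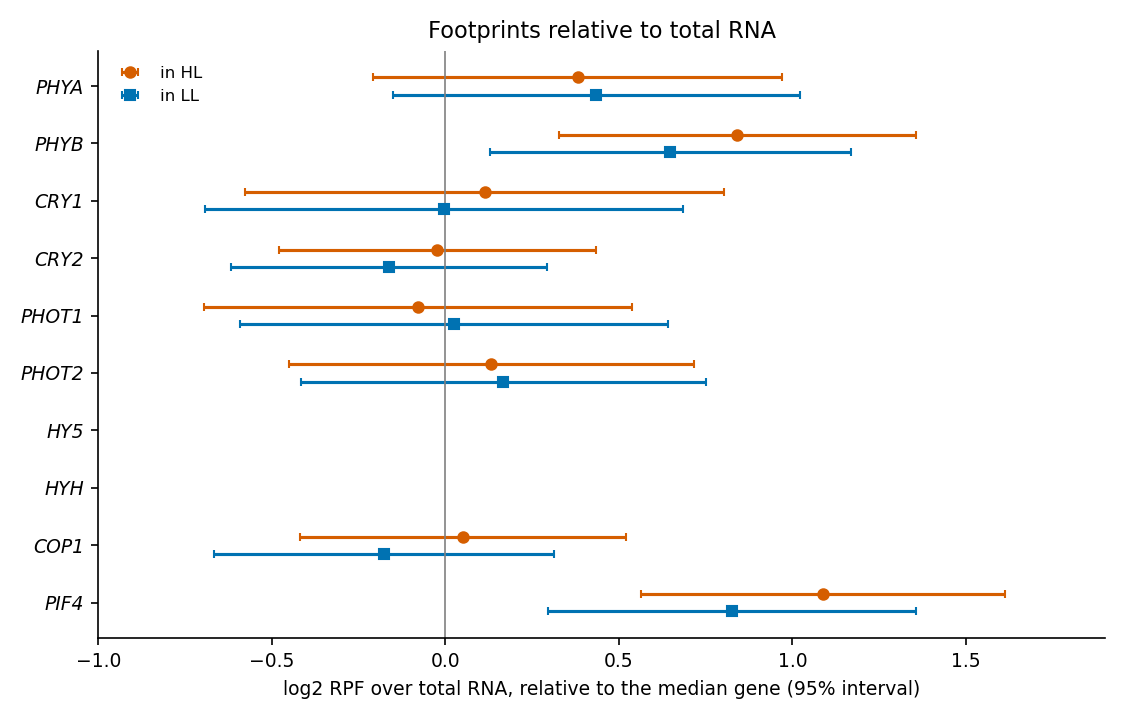
Log2 ratio of RPF to total RNA for each gene in HL (circles) and LL (squares), relative to the median of the 12789 genes tested, with 95% intervals from the fit over 12 libraries. PIF4 and PHYB lie to the right of 0 in both conditions, and the intervals of the cryptochromes, the phototropins and COP1 include 0.

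Ratios between members of a family, taken within a library per kb of span, cancel the scaling of the library. PHYA over PHYB was 2.17, 1.23 and 1.84 in RPF of the HL libraries, against 3.12, 1.41 and 3.10 in LL. In total RNA it was 2.57, 1.72 and 2.61 in HL, against 3.30, 2.04 and 2.95 in LL. The ratio was thus lower in HL at all 3 numbers in both kinds of library, with overlapping groups. PHOT1 over PHOT2 had a median of 2.73 in HL and 3.45 in LL in RPF, and of 3.31 in HL and 3.45 in LL in total RNA, and never fell under 2.60. CRY1 over CRY2 lay on either side of 1 in all 4 groups, from 0.756 to 1.77. These are 3 of 4 ratios computed, the fourth being COP1 over HY5, whose medians were 1.58 in HL and 2.02 in LL in RPF and 1.70 in HL and 2.97 in LL in total RNA. In total RNA it too was lower in HL at all 3 numbers, at 1.96, 1.70 and 1.70 against 2.97, 1.85 and 3.74 in LL. In RPF the pair of number 2 went the other way, at 5.09 in HL against 1.55 in LL. None of the 4 ratios was tested.

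The wider pathway was read from 10 lists holding 101 other genes. Without a block, the edgeR quasi-likelihood test called 0 of the 57 list genes tested in RPF and 0 of the 79 tested in total RNA between HL and LL, where 2 and 5 had an unadjusted p under 0.05. Their median log2 change was -0.09 in RPF and -0.06 in total RNA, beside 0.00 and -0.01 over all genes tested. With the replicate number as a block, 1 fell in RPF and 2 fell in total RNA, where 0.428% and 0.287% of all genes tested were called lower in RPF and in total RNA.

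The gene that fell under the block in both kinds was MYBL2, a repressor of anthocyanin synthesis. It averaged 34.9 ± 9.51 CPM of RPF in HL and 64.5 ± 27.6 CPM in LL, and 29.2 ± 11.0 CPM of total RNA in HL and 53.2 ± 25.4 CPM in LL (SD, n = 3 each). Its blocked log2 change was -0.82 ± 0.20 in RPF (edgeR adjusted p = 0.00501) and -0.83 ± 0.15 in total RNA (adjusted p = 0.0158), and without the block adjusted p was 1.00 in both. PAR1, a small bHLH protein that holds back shade growth, averaged 4.39 ± 1.27 CPM of total RNA in HL and 11.0 ± 2.18 CPM in LL. Its blocked log2 change there was -1.33 ± 0.21 (edgeR adjusted p = 0.00593), against an adjusted p of 0.232 without the block.

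No other list gene was called between HL and LL, with or without the block, and those named next had the smallest p of their list. Of the COP9 signalosome, the complex that works beside COP1, 8 of 10 genes were tested in RPF and had a median of 0.43, the smallest p being that of CSN4 at 1.04 ± 0.45, and all 10 were tested in total RNA with a median of 0.10 and CSN7 at 0.40 ± 0.22. Of the direct COP1 partners, 7 were tested in RPF with a median of -0.05 and SPA4 at -0.38 ± 0.40, and 8 in total RNA with a median of -0.02 and SPA3 at 0.54 ± 0.31. The phototropin partners and chloroplast-movement genes had medians of -0.05 over 11 genes in RPF, with PMI2 at -0.52 ± 0.44, and -0.10 over 13 in total RNA, with the stomatal kinase BLUS1 at -0.73 ± 0.34. The other PIF and bHLH factors had medians of -0.42 over 6 genes in RPF, HFR1 having the smallest p at -0.73 ± 0.41, and -0.13 over 9 in total RNA.

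The remaining lists stood likewise. The HY5 targets had medians of -0.19 over 6 genes in RPF and -0.18 over 10 in total RNA, and 10 of the 20 genes in that list were too scarce to be tested in total RNA. The list of other phytochromes and chromophore synthesis held PHYC, PHYD and PHYE beside HY1, HY2, FHY1, FHL, FHY3 and FAR1. Its median was -0.20 over 7 genes in RPF, with FHY1, which carries PHYA into the nucleus, at -0.87 ± 0.47. In total RNA it was -0.10 over 9, with FAR1 at -0.38 ± 0.23. The B-box factors had medians of -0.19 over 6 in RPF, with BBX4 at 0.49 ± 0.23, and 0.13 over 8 in total RNA, with BBX21 at -0.62 ± 0.27. The LOV-domain F-box receptors had medians of -0.26 in RPF, with FKF1 at -0.58 ± 0.29, and -0.36 in total RNA, with ZTL at -0.36 ± 0.22, over 3 genes each. The PIF targets had medians of -0.15 over 2 in RPF, with XTH15 at -0.41 ± 0.73, and -0.45 over 5 in total RNA, with IAA29 at -0.62 ± 0.27. Of the UV-B and cryptochrome partners, UVR8 alone was tested in RPF, at -0.05 ± 0.24, and of 4 in total RNA with a median of -0.16, BIC2, an inhibitor of cryptochromes, had 1.08 ± 0.46.

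**Figure D5:**
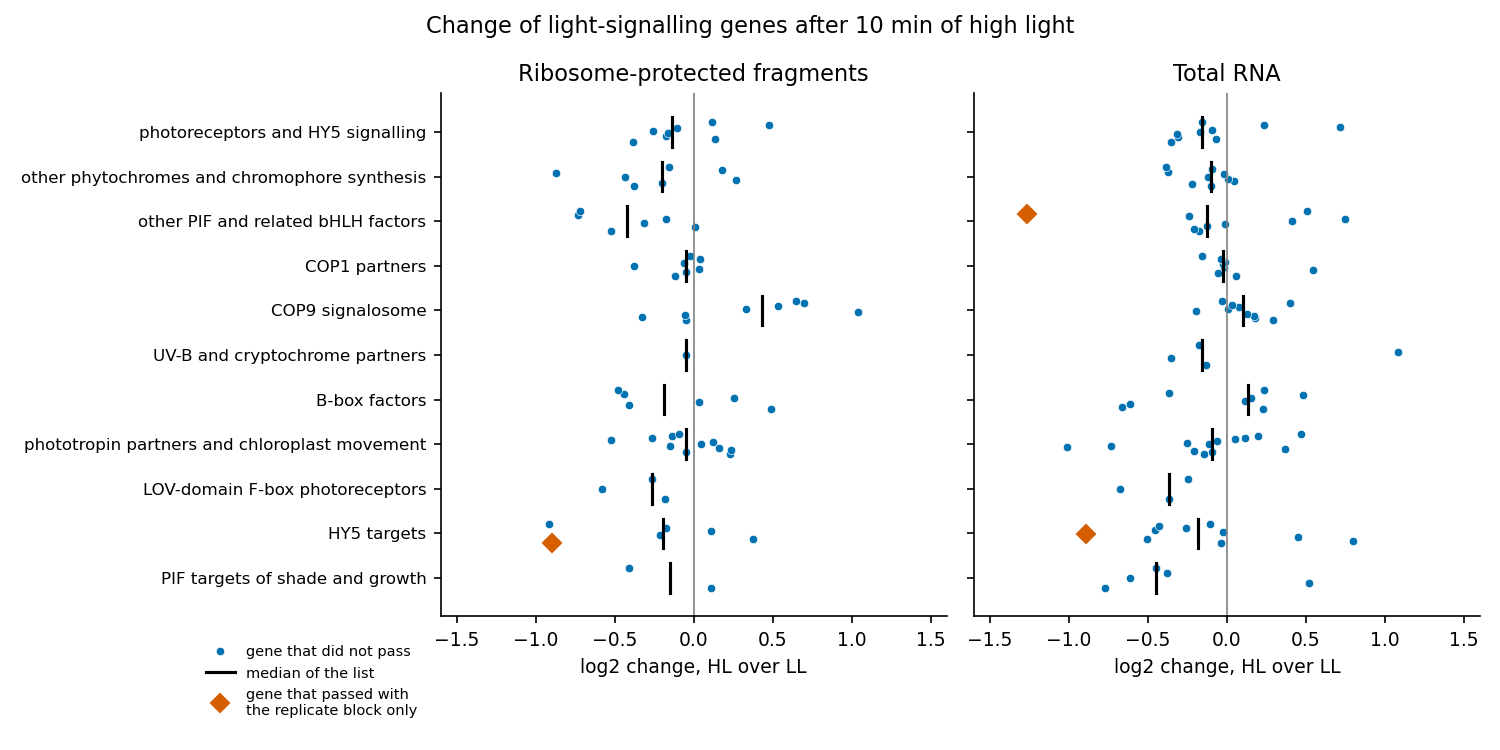
Log2 change, HL over LL, of each tested gene (points) in the photoreceptor and HY5 set and in 10 lists of pathway genes, with the median of each list as a bar, in RPF at left and total RNA at right. Diamonds are the genes that passed with the replicate block only, which are MYBL2 in both panels and PAR1 in total RNA.

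In translational efficiency, 0 of the 63 list genes tested passed in edgeR's test with or without the block, and 0 had an unadjusted p under 0.05. The log2 changes in efficiency with the smallest p in their list were 1.25 ± 0.72 for COP10, 0.91 ± 0.48 for CSN4, 0.86 ± 0.62 for ATHB2, 0.38 ± 0.42 for RBCS1A and 0.17 ± 0.42 for ZTL. On the negative side they were -0.39 ± 0.35 for KAC1, -0.87 ± 0.58 for FHY1, -0.95 ± 1.04 for BBX25, -0.99 ± 0.60 for PIF8 and -1.45 ± 0.98 for BIC2.

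Within a light condition, the share of list genes that differed between RPF and total RNA was near that of all genes, so the count is no result about the lists. In HL, 2 of 63 were higher and 1 was lower, where 5% of all genes tested were called higher and 1.6% lower. In LL, 3 of 63 were higher and 3 were lower, where 5.46% of all genes tested were called higher and 3.02% lower. BBX21, a B-box factor that activates HY5, had a log2 value of 1.91 ± 0.26 in HL (edgeR adjusted p = 0.000422) and 1.72 ± 0.26 in LL (adjusted p = 0.00108). DET1, which represses light responses together with COP10 and DDB1A, had 1.38 ± 0.32 in HL (adjusted p = 0.0169) and 1.43 ± 0.33 in LL (adjusted p = 0.0158). IAA29, an auxin-response repressor and PIF target, lay on the other side at -1.53 ± 0.40 in HL and -1.19 ± 0.35 in LL. It had 16 RPF counts summed over the HL libraries and 36 over the LL libraries.

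Others passed in LL without the block. They were THRUMIN1, an actin-linked protein of chloroplast movement, at 3.19 ± 0.85, COP10 at -2.05 ± 0.53 and CSN4 at -1.23 ± 0.35. These values rest on few counts. Summed over the LL libraries, THRUMIN1 had 62 counts in RPF and 22 in total RNA. COP10 had 9 in RPF and 110 in total RNA, and CSN4 had 30 in RPF and 205 in total RNA. The RPF of THRUMIN1 ran from 0.438 to 27.4 CPM between the LL libraries. With the block within each kind, 8 list genes were higher and 4 lower in HL, and 8 were higher and 6 lower in LL, where 24.2% of all genes tested were called in HL (14.7% higher, 9.46% lower) and 26.6% in LL (14.9% higher, 11.7% lower). Genes that passed with this block only, whose p-values can be too small, are given next by their blocked log2 values. Those passing in both lights were BBX24, a B-box factor, at 1.03 ± 0.17 in HL and 0.86 ± 0.17 in LL, and GUN4, a HY5 target of chlorophyll synthesis, at 1.20 ± 0.16 in HL and 0.89 ± 0.16 in LL.

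In HL, THRUMIN1 had 2.47 ± 0.49, FHY3 0.73 ± 0.16, the nitrate reductase gene NIA2 0.69 ± 0.21 and DDB1A 0.43 ± 0.15, all higher. On the lower side in HL were BBX22 at -0.51 ± 0.16, CSN2 at -0.70 ± 0.23 and FHY1 at -1.18 ± 0.39. In LL, PMI2 had 1.47 ± 0.34, PHYC 0.72 ± 0.21 and SPA1 0.58 ± 0.18, while BBX4 had -0.55 ± 0.17, CSN8 -1.02 ± 0.36 and PAR1 -1.14 ± 0.32. In lists where no gene passed, the smallest p in HL was that of HFR1 at -0.91 ± 0.37, BIC2 at -1.23 ± 0.68 and LKP2 at 0.43 ± 0.24, and in LL that of UVR8 at 0.18 ± 0.29 and LKP2 at 0.46 ± 0.24, without the block.

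Genes whose log2 CPM ran most like that of HY5 over the 12 libraries, after the mean of each kind of library was subtracted, were AT4G24780 with a Pearson r of 0.92, AT4G24805 with 0.88, AT5G13200 with 0.87, AT3G19910 with 0.86 and AT4G13730 with 0.86. They are the highest among 10719 genes compared, the deviations of libraries of the same number are correlated, and HY5 had 3 to 8 counts in the RPF libraries.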

How the data were processed

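Per the file headers, the deposited values are raw counts that featureCounts 1.5.0-p1 made for TAIR10 genes, 1 file per library, by strand over the whole gene span, after alignment with Bowtie2 (RPF) or subjunc (total RNA); no other normalization was applied by the authors. The submitters' processing notes also name FastQC 0.11.5, cutadapt 1.9.1, Bowtie2 2.2.9 and Subread 1.4.5.

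The 26789 protein-coding genes (RefSeq gene table, matched by locus tag, with plastid genes matched by coordinates) were tested with edgeR 4.0.16 (R 4.3.3): filterByExpr (minimum count 10, minimum total 15), TMM factors within each kind of library, and the quasi-likelihood test. Adjusted p (Benjamini-Hochberg) under 0.05 over all genes tested counted as called. RPF and total RNA were fitted separately for HL against LL, with 3 against 3 libraries. A fit over 12 libraries gave translational efficiency and RPF against total RNA, the last recentred on the median gene by 0.41 (log2) in each light. CPM used TMM-adjusted totals over the protein-coding genes that passed the filter in that kind of library. Where library labels state biological replicates they do so for RPF, so total RNA p-values may measure technical spread. No 2 replicates held alike counts (chi-square per degree of freedom 6.05 to 55.6). Counting intervals are exact (95%) and cover counting error only. Code was tested on simulated counts. DESeq2 1.42.0, limma 3.58.1, matplotlib 3.10.9, pandas 2.3.3, scipy 1.17.1, numpy 2.4.6 and Python 3.11.15 were also used.

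Libraries carry numbers 1 to 3 in each group. After group means were removed, HL and LL libraries of the same number correlated at 0.49, 0.45 and 0.30 in RPF and 0.44, 0.51 and 0.37 in total RNA. RPF correlated with total RNA at 0.14 to 0.31, so the numbers were taken as pairs. Standard errors, intervals and p-values are nonetheless from fits without the block unless the block is named. Blocked values are given where they change a call, for PHYA between HL and LL, and for PHYA, PHYB and COP1 in translational efficiency. The block within each kind treats differences between numbers as fixed within a kind. For RPF against total RNA its p-values thus leave out the spread between numbers and can be too small.

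The 10 genes, the pathway lists and the rule for naming genes were chosen with earlier results of these data known. The rule named all 10 genes, each list gene that passed with or without the block or, failing any, the one with the smallest p, and the 5 genes most like HY5. Alternatives were DESeq2, its size factors, no filter, the block, nuclear genes only, no number 1 libraries and each library left out.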

Additional observations from a re-analysis of the deposited data

How the results depend on the processing

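Between HL and LL, no alternative called any of the 10 genes in RPF, total RNA or translational efficiency. Over all genes, RPF calls numbered 38 with DESeq2, 46 with no filter, 196 with the replicate block and 55 with the block and no number 1 libraries, against 24. Total RNA calls numbered 64, 58, 130 and 125 under those settings and 22 without the number 1 libraries, against 37. Efficiency calls numbered 2 with no filter, against 0. For RPF against total RNA in HL, calls numbered 1469 with no filter, 3093 with the block and 1880 with the shared block, against 845; members called were 2, and 1 without the number 1 libraries. In LL they numbered 1629, 3401 and 2083, against 1084; members called were 0, but 1 each (PIF4) with DESeq2, no filter, nuclear genes only or no number 1 libraries, 3 with the block and 2 with the shared block. The fit with the replicate block changed no other call of a member. The shared block and the block without number 1 libraries were chosen after seeing the data.

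Leaving out 1 library at a time gave 7 to 21 calls in RPF, 14 to 38 in total RNA, 0 in efficiency, 260 to 894 for RPF against total RNA in HL (members 0 to 2) and 272 to 1109 in LL (members 0 to 1). Fewer libraries entered these fits.

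Log2 values that changed sign were all uncalled and near 0. Without the number 1 libraries PIF4 was -0.034 in RPF (-0.039 with the block), and in efficiency PHOT1 was 0.014 and PIF4 -0.011. For RPF against total RNA in HL, CRY2 was 0.10 and PHOT1 0.051 with no filter, and CRY2 0.068 without the number 1 libraries. In LL, CRY1 was 0.12 with no filter, 0.040 with the block, 0.017 with nuclear genes only, 0.026 without the number 1 libraries and 0.018 with the shared block, and PHOT1 was -0.029 without the number 1 libraries. The cause was not tested.

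With 1 library left out, log2 values that changed sign had these ranges. In RPF they were PHYB -0.072 to 0.35, CRY1 -0.36 to 0.044, PIF4 -0.0072 to 0.26. In total RNA they were PHYB -0.16 to 0.041, CRY1 -0.55 to 0.051, PHOT1 -0.38 to 0.18, PHOT2 -0.31 to 0.19, PIF4 -0.35 to 0.082. In efficiency they were PHYA -0.22 to 0.18, PHYB -0.019 to 0.41, CRY1 -0.23 to 0.36, PHOT1 -0.45 to 0.091, PHOT2 -0.30 to 0.18. For RPF against total RNA in HL they were CRY1 -0.043 to 0.33, CRY2 -0.14 to 0.032, PHOT1 -0.17 to 0.044, PHOT2 -0.017 to 0.30, COP1 -0.13 to 0.16. In LL they were CRY1 -0.22 to 0.31, PHOT1 -0.17 to 0.34.

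Depth limits the rarest genes: HYH had 1 RPF count in each light and HY5 12 to 19, and CPM are shares of a library, so a change common to most genes is not seen.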
